A study of Homo sapiens with 9 samples.

Results

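Cytosolic ribosomal proteins are the protein part of the 80S ribosome. The large subunit pairs its proteins with the 28S, 5.8S and 5S rRNAs, and the small subunit with the 18S rRNA. Cells need the proteins in matched amounts, and the mRNAs that encode them are abundant, short and usually begin with a C followed by a run of pyrimidines, the terminal oligopyrimidine (TOP) tract, through which mTORC1 and LARP1 set their translation and stability. Hepatocytes and hepatoma cells translate large amounts of secreted protein and carry many ribosomes.

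The genes were taken by symbol. They are the protein-coding genes named RPL or RPS with a number, an optional letter ending and an optional further digit, together with RPLP0, RPLP1, RPLP2 and RPSA, and without the RPS6K kinase genes. Of the 60664 genes in the count table, 87 met this rule, namely 46 core genes of the large subunit, 31 core genes of the small subunit, and 10 paralogs and like genes such as RPL10L and RPS27L. The test for low counts was passed by 84 of them. RPL3L, with at most 6 counts in a library, did not pass, and RPS4Y1 and RPS4Y2 had 0 counts in each of the 9 libraries.

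The samples were Huh-7 cells, a human hepatocellular carcinoma line, grown untreated in DMEM/F12 with serum to near confluence. The 3 lines were wild type (WT), vtRNA1-1 KO (1-1 KO) and vtRNA1-2 KO (1-2 KO), with 3 mRNA libraries each. Vault RNAs are short polymerase III transcripts. WT and 1-1 KO cells came from another laboratory, 1-2 KO cells were derived from WT with CRISPR/Cas9 and grown up from 1 cell, and each knockout was 1 line, so that the loss of a vtRNA and any other property of that line cannot be told apart. The libraries held between 32384469 and 41782387 counts, and 17207 genes were tested. The vault RNAs had at most 2 counts in a library, so that these mRNA libraries do not show the knockouts. Levels are counts per 1e6 counts (CPM) of the TMM-normalized library size, given as mean ± SD of 3 libraries, and changes are log2 fold changes ± SE from edgeR's quasi-likelihood test, called at an adjusted p under 0.05. All 9 hepatocyte and hepatoma markers, ALB and AFP among them, were above 1 CPM in each line, and of 4 endothelial markers PECAM1 was above 1 CPM in WT and 1-1 KO while KDR had 0 counts in all 9 libraries. The fibroblast list had 4 of 5 genes above 1 CPM in each line, with a summed level from 184 to 195 CPM in WT, 279 to 292 CPM in 1-1 KO and 115 to 123 CPM in 1-2 KO. The leukocyte list had 2 of 4 genes above 1 CPM in each line and summed to 115 CPM in WT, 101 to 107 CPM in 1-1 KO and 21.5 to 22.4 CPM in 1-2 KO. The endothelial list summed to 7.39 to 8.04 CPM in WT, 6.40 to 7.22 CPM in 1-1 KO and 0.831 to 1.105 CPM in 1-2 KO. The part of these genes in the results was not tested.

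Some counts are less certain than others. Pseudogenes named after 78 of the genes numbered 1599, of which 934 had any count, and they held between 1.57 and 1.85 counts per 100 counts of the genes themselves in 8 libraries. In 1-2 KO replicate 1 the value was 4.44, with RPS2P46 at 1265 CPM there and between 73.8 and 169 CPM elsewhere. RPL36A, RPL17 and RPS10 share exons with readthrough genes on the same strand. A few genes differed strongly between libraries of 1 line. RPL13 was at 932 CPM in 1-2 KO replicate 1 and at 406 and 402 CPM in the other 1-2 KO libraries. RPL8 was at 643, 736 and 961 CPM and RPS15 at 136, 171 and 235 CPM in WT replicates 1, 2 and 3. The GC content of the canonical transcript was over 60% for 4 of the 84 tested genes, and these lay above the mean of their line by a median of 0.19 (log2) in WT replicate 3 and 0.14 in 1-2 KO replicate 1. Over all 84 genes, the Spearman correlation of GC content with this deviation was -0.71 in 1-2 KO replicate 2 and -0.50 in WT replicate 2. It was 0.31 in 1-2 KO replicate 1 and 0.25 in WT replicate 3, and between -0.22 and 0.21 in the remaining libraries. The part of GC content or of library preparation in this was not tested.

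The start of the transcript is the feature that most of these genes share and that the choice by symbol did not use. The promoter table of RefSeq (GRCh38.p14) held 86 annotated starts for 70 of the 87 genes. A C at the annotated start followed by at least 4 letters that are each C or T, read on the strand of the gene, was present at 59.7% of the 77 starts of core genes, at 22.2% of the 9 starts of paralogs and like genes, and at 4.07% of all 35116 starts in the table. Within 10 nt on either side of the annotated start the shares were 80.5%, 33.3% and 32.5%. Windows of 30 nt, 10 before and 20 from the start on, are shown for genes that the results below turn on, with the longest run of C and T in capitals where it has at least 5 letters.
RPLP0: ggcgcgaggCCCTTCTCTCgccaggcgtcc
RPL4: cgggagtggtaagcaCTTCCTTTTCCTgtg
RPS23: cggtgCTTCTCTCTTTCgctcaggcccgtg
RPS14: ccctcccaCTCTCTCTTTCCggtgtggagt
RPL31: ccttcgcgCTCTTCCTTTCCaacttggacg
RPL36AL: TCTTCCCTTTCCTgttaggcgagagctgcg
RPL22L1: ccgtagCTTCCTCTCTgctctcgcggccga
RPS27L: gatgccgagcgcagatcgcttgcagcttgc
RPL10L: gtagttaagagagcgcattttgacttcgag
These lie at chr12:120201092-120201121 (RPLP0, minus strand), chr15:66504836-66504865 (RPL4, minus), chr5:82278335-82278364 (RPS23, minus), chr5:150449720-150449749 (RPS14, minus), chr2:101002279-101002308 (RPL31, plus), chr14:49620607-49620636 (RPL36AL, minus), chr3:170870176-170870205 (RPL22L1, minus), chr15:63157458-63157487 (RPS27L, minus) and chr14:46651762-46651791 (RPL10L, minus). Each window spans the promoter and the first bases of exon 1. RPLP0, RPS23, RPS14, RPL31 and RPL22L1 hold the C-led run at the annotated start, RPL4 and RPL36AL hold one within 10 nt of it, and RPS27L and RPL10L hold none in the window. Genes with the run at the start are found below among those that fell (RPLP0, RPS23) and among those that rose in 1 of the knockouts (RPL31, RPS14).

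The genes as a group took a smaller share of the library in both knockouts. They held 4.98, 5.12 and 5.07% of all counts in WT, 4.19, 4.13 and 4.28% in 1-1 KO, and 4.74, 4.72 and 4.82% in 1-2 KO. The 3 lines did not overlap, with 1-1 KO lowest and 1-2 KO between 1-1 KO and WT. The mean fell by 16.9% of its WT value in 1-1 KO and by 5.80% in 1-2 KO. Over the TMM-scaled library size, as used for CPM, it fell by 19.7% in 1-1 KO and fell by 9.33% in 1-2 KO. Counts in bulk RNA are relative, so that a fall of these mRNAs and a rise of others cannot be told apart. Nor can a fall in every cell be told from a fall in part of the cells. Of the 9 hepatocyte and hepatoma markers, 8 (88.9%) were higher and 0 lower in 1-1 KO. In 1-2 KO 6 (66.7%) were higher and 1 (11.1%) lower. Of all tested genes, 32.5% were higher and 30.9% lower in 1-1 KO, and 28.2% higher and 26.2% lower in 1-2 KO. The summed level of the markers ranged from 12440 to 13170 CPM in WT, from 27300 to 28100 CPM in 1-1 KO and from 19760 to 21690 CPM in 1-2 KO. Their part in the share was not tested. The core of the large subunit went from 3.07% ± 0.0496 of counts in WT to 2.58% ± 0.0366 in 1-1 KO and 2.92% ± 0.0376 in 1-2 KO, and the core of the small subunit from 1.93% ± 0.0206 to 1.56% ± 0.0353 and 1.79% ± 0.0325 (SD, n = 3). Large-subunit counts divided by small-subunit counts ranged from 1.58 to 1.60 in WT, 1.64 to 1.66 in 1-1 KO and 1.61 to 1.67 in 1-2 KO.

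Compared to WT, 56 of the 84 tested genes were lower and 7 higher in 1-1 KO. That is 66.7% lower, against 30.9% of all tested genes, and 8.33% higher, against 32.5%. The median log2 fold change was -0.27, against 0.01 over all tested genes. Abundant mRNAs fell more often than tested genes at large. Among 2281 other tested genes at 100 CPM or more in WT, 53.5% were lower and 24.99% higher, with a median of -0.13. These genes were chosen by their level in the same WT libraries, which can by itself favour falls compared to WT. The part of that choice was not tested. For 1-2 KO, 43 genes were lower and 5 higher compared to WT. Here 51.2% were lower, against 26.2% of all tested genes and 47.9% of the other abundant genes, and 5.95% were higher, against 28.2% and 20.3%. The median was -0.11 in 1-2 KO, against 0.02 over all tested genes and -0.09 over the other abundant genes. In 1-2 KO the share lower was near that of the other abundant genes, with the same limit from their choice in WT. Both comparisons use the same 3 WT libraries. With library size alone as scaling, 30 genes were lower in 1-2 KO, against 22.1% of all tested genes.

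Set directly against each other, 42 genes were higher in 1-2 KO than in 1-1 KO and 19 lower. The shares were 50% higher, against 33.1% of all tested genes, and 22.6% lower, against 32.2%, and the median was 0.10, against 0.01. Among the other abundant genes 40.9% were higher and 37.7% lower, with a median of 0.02. By subunit, 29 of 46 large-subunit genes (63.0%) and 24 of 31 small-subunit genes (77.4%) were lower in 1-1 KO compared to WT, with medians of -0.26 and -0.28. Of all tested genes 30.9% were lower there, and of the other abundant genes 53.5%. In 1-2 KO the counts were 21 (45.7%) and 19 (61.3%), with medians of -0.07 and -0.16. Here 26.2% of all tested genes and 47.9% of the other abundant genes were lower, so that the large-subunit share did not exceed that of the abundant genes. Genes of the same subunit differed among themselves, and the interquartile range of the large-subunit genes went from -0.42 to -0.02 in 1-1 KO and from -0.16 to -0.02 in 1-2 KO. The genes higher in 1-1 KO were RPL10L, RPL36AL, RPL8, RPS15, RPL31, RPL30 and RPL17, and those higher in 1-2 KO were RPL8, RPS14, RPS2, RPS15A and RPL12. Of these, RPL10L passed the test for low counts only through its 1-1 KO libraries.

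The P-stalk, the flexible arm of the large subunit that recruits the translation factor GTPases, fell in 1-1 KO with all 3 of its genes. RPLP0, its base, was at 1831, 1812 and 1805 CPM in WT, 1050, 1040 and 1067 CPM in 1-1 KO, and 1644, 1667 and 1786 CPM in 1-2 KO. The 1-1 KO libraries lay far below the rest and the 1-2 KO libraries just below WT. The change was -0.79 ± 0.037 in 1-1 KO (adjusted p = 3.3e-10) and -0.10 ± 0.037 in 1-2 KO (adjusted p = 0.0388), and the latter was called in 9 of 20 alternative settings and not with library size alone (-0.04). RPLP1, which binds RPLP0 as a dimer with RPLP2, was at 1030, 1113 and 1159 CPM in WT and at 653, 639 and 676 CPM in 1-1 KO, a change of -0.75 ± 0.045 (adjusted p = 4.9e-09). In 1-2 KO it was at 985, 931 and 995 CPM, a smaller fall of -0.18 ± 0.045 (adjusted p = 0.00357). RPLP2 was at 489, 508 and 529 CPM in WT, at 350, 333 and 396 CPM in 1-1 KO and at 499, 489 and 466 CPM in 1-2 KO. It fell by 0.50 on the log2 scale in 1-1 KO (SE 0.056, adjusted p = 2.53e-06), whereas the 1-2 KO libraries overlapped WT and were not called, at -0.07.

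Among other large-subunit genes, RPL4, whose product lines the peptide exit tunnel, was at 2329, 2301 and 2251 CPM in WT, at 1344, 1373 and 1308 CPM in 1-1 KO and at 1686, 1870 and 2002 CPM in 1-2 KO. The 3 lines did not overlap. The changes were -0.77 ± 0.051 (adjusted p = 1.16e-08) and -0.31 ± 0.051 (adjusted p = 0.000142). RPL5 and RPL11, which bind the 5S rRNA and can hold back MDM2, the ligase that degrades p53, fell in both lines. RPL5 was at 1002, 1060 and 1030 CPM in WT, 751, 734 and 793 CPM in 1-1 KO, and 861, 882 and 869 CPM in 1-2 KO, with changes of -0.44 and -0.24. Relative to its genomic neighbours, described below, RPL5 was called higher in 1-2 KO (0.13, adjusted p = 0.00814). RPL11 was at 879, 876 and 871 CPM in WT, 631, 614 and 670 CPM in 1-1 KO and 654, 708 and 682 CPM in 1-2 KO, with changes of -0.46 and -0.36. RPL26 fell in 1-1 KO, with 298, 311 and 281 CPM in WT and 208, 190 and 218 CPM in 1-1 KO (-0.53 ± 0.052), and was not called in 1-2 KO, at 310, 301 and 287 CPM. RPL9, whose protein the study used as a loading control on immunoblots, was at 335 ± 10.8 CPM in WT, 259 ± 6.55 CPM in 1-1 KO and 318 ± 10.8 CPM in 1-2 KO. Its mRNA fell by 0.37 on the log2 scale in 1-1 KO (SE 0.038, adjusted p = 9.89e-07), and in 1-2 KO the change of -0.08 was not called (adjusted p = 0.11).

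RPL37 fell in 1-2 KO. This small zinc-binding protein of the large subunit was at 1255, 1311 and 1298 CPM in WT, 1172, 1213 and 1173 CPM in 1-1 KO and 579, 646 and 685 CPM in 1-2 KO. The 1-2 KO libraries lay far below the others, 2.02-fold lower than WT, a change of -1.02 ± 0.051 (adjusted p = 8.35e-10), and the change in 1-1 KO was -0.12 (adjusted p = 0.0522), which was called in 10 of 20 alternative settings, DESeq2 among them (adjusted p = 0.0169). RPL41, the shortest of the ribosomal proteins, was at 752 ± 5.16 CPM in WT, 747 ± 9.85 CPM in 1-1 KO and 677 ± 52.5 CPM in 1-2 KO. It was called lower in 1-2 KO, at -0.15, and not with library size alone as scaling (-0.10) or relative to its neighbours (-0.07).

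Few large-subunit genes rose. RPL31, a protein near the exit of the tunnel, was at 454, 471 and 456 CPM in WT and at 593, 575 and 597 CPM in 1-1 KO, a rise of 0.35 ± 0.041 (adjusted p = 3.12e-06), and at 429, 458 and 478 CPM in 1-2 KO, which overlapped WT. RPL8 was at 1096, 1064 and 1043 CPM in 1-1 KO and at 1146, 966 and 989 CPM in 1-2 KO, above the spread-out WT values given above. Its changes were 0.45 ± 0.11 (adjusted p = 0.002) and 0.41 ± 0.11 (adjusted p = 0.00521), and WT replicate 3, at 961 CPM, lay just under the lowest 1-2 KO library, at 966 CPM. RPL30 was at 406, 425 and 421 CPM in WT, 445, 441 and 484 CPM in 1-1 KO and 357, 388 and 372 CPM in 1-2 KO. It rose by 0.13 ± 0.043 in 1-1 KO (adjusted p = 0.0178) and fell by 0.17 in 1-2 KO (adjusted p = 0.00521), and the rise was lost without WT replicate 1 (0.11) or 1-1 KO replicate 3 (0.09). RPL12 was called higher in 1-2 KO at 0.11 ± 0.04 (adjusted p = 0.0338), a call kept in 10 of 20 alternative settings. RPL13, with the library that stood apart, was not called in any comparison.

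In the small subunit, RPS23, a protein of the decoding centre, fell in both knockouts. It was at 1086, 1115 and 1100 CPM in WT, 559, 570 and 600 CPM in 1-1 KO and 680, 733 and 740 CPM in 1-2 KO. The changes were -0.93 ± 0.041 (adjusted p = 1.7e-10) and -0.62 ± 0.041 (adjusted p = 1.41e-08), with no overlap between any 2 lines. RPS12 was at 1095, 1146 and 1156 CPM in WT, 725, 710 and 816 CPM in 1-1 KO, and 762, 765 and 738 CPM in 1-2 KO. It fell by 0.59 and 0.58, and the knockouts overlapped each other (difference 0.01 ± 0.048). RPS18, of the head of the subunit, was at 1801 ± 11.7 CPM in WT, 1362 ± 44.2 CPM in 1-1 KO and 1408 ± 49.0 CPM in 1-2 KO. It fell in both knockouts. Between them it was not called (0.05), except without 1-2 KO replicate 1 (0.08, adjusted p = 0.039) and relative to its neighbours (0.18, adjusted p = 0.000733).

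RPS27, a zinc-finger protein of the small subunit, was at 737, 740 and 771 CPM in WT, 417, 391 and 457 CPM in 1-1 KO and 580, 640 and 609 CPM in 1-2 KO, with changes of -0.83 ± 0.053 and -0.30 ± 0.052. RPS6, the substrate of the S6 kinases, was at 1122 ± 9.72 CPM in WT, 804 ± 58.1 CPM in 1-1 KO and 1096 ± 36.1 CPM in 1-2 KO. It fell by 0.48 in 1-1 KO (adjusted p = 6e-07) and was not called in 1-2 KO, where 1-2 KO and WT overlapped. RPS19, the gene mutated most often in Diamond-Blackfan anaemia, was at 702 ± 5.61, 608 ± 5.44 and 649 ± 24.0 CPM, with changes of -0.21 (adjusted p = 0.000116) and -0.11 (adjusted p = 0.0124). The latter was lost without 1-2 KO replicate 2 (-0.08) and with library size alone (-0.06). RPS10 was at 29.3 ± 1.99, 24.3 ± 0.564 and 24.3 ± 0.986 CPM and fell by 0.27 in each knockout.

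RPS14, a protein of the platform whose reduced dose is part of the 5q- syndrome, changed in opposite directions. It was at 779, 783 and 774 CPM in WT, 593, 583 and 541 CPM in 1-1 KO and 899, 958 and 1011 CPM in 1-2 KO. It fell by 0.44 in 1-1 KO (SE 0.046, adjusted p = 1.05e-06) and rose by 0.30 ± 0.045 in 1-2 KO (adjusted p = 7.25e-05), a difference between knockouts of 0.74 ± 0.046 (adjusted p = 4.19e-09). RPS2 was at 666, 705 and 713 CPM in WT, 589, 590 and 549 CPM in 1-1 KO and 816, 779 and 860 CPM in 1-2 KO, with changes of -0.27 and 0.24. Pseudogenes named after RPS2 held 49.1 counts per 100 of its own over all libraries. With these added the change in 1-1 KO was -0.20 and no longer called. RPS2P46, among these pseudogenes, was at 1265 CPM in 1-2 KO replicate 1 and at most at 169 CPM elsewhere. That library was part of the same fit. Relative to its neighbours the rise in 1-2 KO was 0.07 and not called (adjusted p = 0.234). RPS15A was at 275 ± 7.17, 226 ± 7.63 and 298 ± 11.6 CPM, with changes of -0.28 and 0.12, the rise called in 14 of 20 alternative settings. RPS15 was called higher in 1-1 KO (0.45 ± 0.14, adjusted p = 0.0146), where it was at 253, 240 and 243 CPM, and this call was lost without WT replicate 1 (0.27) or WT replicate 2 (0.41), with DESeq2 (0.43, adjusted p = 0.0905) and relative to its neighbours (0.004, adjusted p = 0.984). RPS27A, which is made as a fusion with ubiquitin, was at 540 ± 8.10, 550 ± 59.5 and 445 ± 19.1 CPM and was called in 1-2 KO, at -0.28. RPS29 was at 90.7 ± 4.04, 86.2 ± 10.2 and 73.3 ± 1.66 CPM and was likewise called in 1-2 KO, at -0.31. For RPS27A and RPS29 the libraries of 1-2 KO also lay below those of 1-1 KO, by 0.31 and 0.23 on the log2 scale.

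The paralogs moved apart from one another. RPL10L, an intronless copy of RPL10 known for its expression in testis, had 10, 7 and 6 counts in WT, 106, 115 and 109 in 1-1 KO and 10, 8 and 8 in 1-2 KO. That is 0.209 ± 0.0363, 2.66 ± 0.146 and 0.213 ± 0.0215 CPM. The rise in 1-1 KO was 12.4-fold, or 3.63 ± 0.19 on the log2 scale (adjusted p = 1.1e-09), and 1-2 KO overlapped WT. RPL10L passed the test for low counts only through its 1-1 KO libraries, where it is high. Its call thus rests on the line that let it into the test. With at least 10 counts required in every library it was not tested. Parts of a pair were taken on counts per length, with all annotated exons of a gene merged. RPL10L was 0.155% ± 0.0237 of the sum of RPL10 and RPL10L in WT. In 1-1 KO it was 2.52% ± 0.127 and in 1-2 KO 0.185% ± 0.0308. RPL10 itself fell, from 803 ± 16.5 CPM to 613 ± 6.23 and 691 ± 48.4 CPM.

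RPL36AL, the second copy of the RPL36A protein, was at 59.9, 63.2 and 64.1 CPM in WT, 86.3, 83.6 and 87.6 CPM in 1-1 KO and 46.2, 51.7 and 52.3 CPM in 1-2 KO. The lines did not overlap, with a rise of 0.46 ± 0.048 in 1-1 KO (adjusted p = 1.13e-06) and a fall of 0.32 in 1-2 KO (SE 0.049, adjusted p = 7.22e-05). RPL36A was at 5.60, 6.56 and 5.10 CPM in WT and at 4.77, 4.43 and 3.75 CPM in 1-1 KO, a change of -0.42 (adjusted p = 0.00574), and was not called in 1-2 KO. Counts per length put RPL36AL at between 97.8 and 99.3% of the pair in every library, but RPL36A shares exons with a readthrough gene, and how reads in shared exons were assigned is not given in the sources used here.

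RPS27L, a paralog of RPS27 known as a target of p53, was at 201, 230 and 211 CPM in WT, 217, 209 and 224 CPM in 1-1 KO and 153, 164 and 156 CPM in 1-2 KO. It fell by 0.44 in 1-2 KO (SE 0.048, adjusted p = 2.64e-06) and overlapped WT in 1-1 KO. Its part of the pair was 3.22% ± 0.236 in WT, 5.66% ± 0.236 in 1-1 KO and 2.92% ± 0.0543 in 1-2 KO. RPL22L1, a paralog of RPL22 with a role in splicing, was at 19.9, 22.7 and 21.1 CPM in WT, 13.8, 13.1 and 18 CPM in 1-1 KO and 22.5, 21.9 and 18.1 CPM in 1-2 KO, and fell by 0.50 in 1-1 KO (SE 0.11, adjusted p = 0.00124). RPL22 fell in both, by 0.18 in 1-1 KO and by 0.39 in 1-2 KO, so that the part of RPL22L1 was 17.5% ± 0.846 in WT, 14.5% ± 1.63 in 1-1 KO and 21.4% ± 1.83 in 1-2 KO. RPL26L1 was at 45.8, 49.97 and 47.9 CPM in WT and at 34.7, 33.6 and 34.6 CPM in 1-1 KO, a fall of 0.48 (adjusted p = 2.46e-07), and at 48.2, 48.3 and 48.8 CPM in 1-2 KO. RPL26 fell by 0.53, and RPL26L1 made up between 24.7 and 27.3% of that pair in all 9 libraries. These parts depend on the length used. With all annotated exons merged, RPL26L1 and RPL26 were at 41.15 and 119.8 CPM per kilobase in WT. Per kilobase of canonical transcript they were at 66.33 and 561.6. RPL22L1 and RPL22 were at 10.34 and 48.65, and at 11.15 and 110.1. RPS27L and RPS27 were at 24.26 and 728.9, and at 35.04 and 2129. The canonical length gives these paralogs a smaller part. RPL7L1, which acts in ribosome assembly, fell in both lines, from 250 ± 6.32 CPM to 199 ± 2.72 CPM (-0.33) and 185 ± 8.91 CPM (-0.43), while RPL7 was at 573 ± 17.3, 580 ± 5.39 and 572 ± 31.1 CPM and was not called. RPL39L was at 9.90 ± 3.25, 9.77 ± 0.619 and 10.1 ± 1.37 CPM and was not called in any comparison. RPL3L, a paralog of striated muscle, had between 0 and 6 counts, too few for a test, and a gene at 0 counts in a library, such as RPS4Y1, may have had up to 3.

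Levels were compared between genes only per length, as CPM per kilobase of annotated exon in WT. Of the core genes, RPS12 was highest at 1772 ± 50.7, followed by RPS18 at 982 ± 6.40, and RPS27 at 729 ± 18.4 and RPL41 at 679 ± 4.66 were also among the 5 highest (SD, n = 3). RPL36A was lowest at 1.45 ± 0.187, and the 5 lowest also held RPS29 at 9.22 ± 0.411, RPS10 at 12.7 ± 0.860 and RPS15A at 41.2 ± 1.07, whose libraries did not overlap one another. The union of exons counts long rare isoforms: it was 9840 nt for RPS29, whose canonical transcript has 295 nt. Per kilobase of canonical transcript RPS18 was highest, at 3281, and RPS29 was at 308, whereas RPL36A was at 7.56 and RPS10 at 49.9. The Spearman correlation of both scales over the 77 core genes was 0.80.

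The position of a gene in the genome went with its change. The 50 tested genes nearest to each one on its chromosome served as neighbours, and their median change was taken. Over the 84 genes the Spearman correlation between gene and neighbours was 0.70 in 1-1 KO compared to WT and 0.43 in 1-2 KO compared to WT. Over 17135 tested genes the same correlation was 0.40 and 0.32. Genes of a region share neighbours, so that these are descriptions and not tests. RPL37 lay in a stretch of chromosome 5 whose neighbours had a median of -0.91 in 1-2 KO, and with the neighbours' median as an offset its change was -0.10 and not called (adjusted p = 0.107). RPS14, further along chromosome 5, had neighbours at 0.38 in 1-2 KO, and its rise there became -0.08 with the offset. RPL31 on chromosome 2 had neighbours at 0.57 in 1-1 KO, and its rise became a difference of -0.21 from them. The fall of RPS27 in 1-2 KO was at -0.03 with the offset and was not called (adjusted p = 0.685), nor was the rise of RPS15A (0.05). RPS10, which fell in 1-2 KO, was at 0.04 with it. Changes without a call became calls for RPS6 in 1-2 KO (-0.15), for RPS27A (-0.17), RPS29 (-0.47), RPL37 (-0.37) and RPS27L (0.13) in 1-1 KO, and for RPS12 between knockouts (0.20). The rises of RPL8 were at -0.04 in 1-1 KO and 0.18 in 1-2 KO with the offset and were not called. RPL8 (0.50), RPS15 (0.44) and RPL30 (0.38) also had neighbours that were higher in 1-1 KO, and RPS27 (-0.68), RPLP1 (-0.51), RPS23 (-0.46), RPL4 (-0.42) and RPLP0 (-0.34) had neighbours that were lower.

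Against this background most of the genes were still lower than their surroundings. In 1-1 KO compared to WT, 77 of 84 lay below the median of their neighbours, by a median of 0.32 on the log2 scale, and in 1-2 KO compared to WT 69 lay below, by a median of 0.14. How many other abundant genes lay below their own neighbours was not counted. Of those at 100 CPM or more in WT, chosen by the WT libraries as above, 65.2% in 1-1 KO and 65.9% in 1-2 KO had a change under 0. The ribosomal protein genes stood at 80.95 and 76.2%. On 19 of 21 chromosomes in 1-1 KO, and on 20 of 21 in 1-2 KO, the median of the ribosomal protein genes was under that of the other tested genes. Chromosomes 10, 13, 18, 20 and 22 held 1 ribosomal protein gene each, and the other genes were of any level. Chromosome 19 held 12 of the genes, among them RPS19 and RPS28, with a median of -0.08 in 1-1 KO against 0.34 for 1087 other genes there. RPS28, at 122 ± 1.02 CPM in WT, had neighbours at 0.62 in 1-1 KO and a change of -0.03 of its own. RPS12 fell by 0.59 in 1-1 KO among neighbours at 0.02. RPL36AL (neighbours at 0.28, own change 0.46) and RPL10L (0.33 and 3.63) were above theirs. With the offset, 70 genes were lower and 5 higher in 1-1 KO, 48 lower and 3 higher in 1-2 KO, and 49 higher and 9 lower in 1-2 KO than in 1-1 KO. Over all 17135 genes with neighbours, the offset left 29.1% lower and 28.7% higher in 1-1 KO, 26.4% lower and 25.4% higher in 1-2 KO, and 29.7% higher and 30.3% lower between knockouts. The number of gene copies was not measured here, and its part in these values was not tested.

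The related gene lists were read in the same way. Of the ribosomal proteins under other symbols, RACK1, a scaffold on the small subunit, fell in 1-1 KO from 1546 ± 20.3 to 1197 ± 29.4 CPM (-0.37) and was at 1610 ± 105 CPM in 1-2 KO. FAU, another protein of the small subunit made as a fusion, fell in 1-2 KO (-0.12). The mitochondrial ribosomal proteins, which are made in the cytosol for the separate ribosome of the organelle, had 29 of 77 tested genes lower and 21 higher in 1-1 KO and 31 lower and 11 higher in 1-2 KO, with medians of -0.07 and -0.05. These lower shares, 37.7 and 40.3%, stand beside 66.7 and 51.2% for the cytosolic genes and 30.9 and 26.2% for all tested genes. Of 17 tested translation factors and other mRNAs known to carry a TOP tract, 8 (47.1%) were lower and 5 (29.4%) higher in 1-1 KO, and 5 (29.4%) lower and 1 (5.88%) higher in 1-2 KO, against 30.9 and 32.5% of all tested genes in 1-1 KO and 26.2 and 28.2% in 1-2 KO. Among them BTF3, a subunit of the nascent polypeptide complex, went from 499 ± 4.95 to 319 ± 5.01 and 390 ± 9.30 CPM, and EEF2, the elongation factor of translocation, from 2334 ± 117 to 2499 ± 27.4 and 1863 ± 37.1 CPM. NAP1L1, a histone chaperone, fell in 1-1 KO (-0.58).

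Of 73 ribosome assembly factors, 44 were lower and 10 higher in 1-1 KO (median -0.23), and 42 lower and 6 higher in 1-2 KO (median -0.17). The lower shares, 60.3 and 57.5%, stand beside 30.9 and 26.2% of all tested genes and 53.5 and 47.9% of the other abundant genes. NPM1, the nucleolar chaperone, was at 2951 ± 74.2 CPM in WT, 1701 ± 51.7 CPM in 1-1 KO and 2909 ± 32.9 CPM in 1-2 KO, and GTPBP4, a GTPase of large-subunit maturation, at 213 ± 3.28, 120 ± 3.46 and 105 ± 3.45 CPM. MRTO4, which holds the place of the P-stalk base during assembly, fell from 114 ± 0.185 CPM to 78.8 ± 0.880 and 83.2 ± 0.319 CPM. Of 15 genes of RNA polymerase I and its factors, 9 were lower and 3 higher in 1-1 KO, and 6 lower and 2 higher in 1-2 KO, which is 60% and 40% lower against the same shares. POLR1E and TAF1D fell in both knockouts (-0.52 and -0.56 in 1-1 KO), POLR1C fell in both (-0.18 and -0.43), and UBTF, which opens rDNA, rose in 1-2 KO (0.33). The list of regulators of TOP mRNA translation and S6 kinases had more rises than falls, with 11 of 18 tested genes higher and 3 lower in 1-1 KO and 9 higher and 2 lower in 1-2 KO. The higher shares, 61.1 and 50%, stand beside 32.5 and 28.2% of all tested genes, and the lower shares, 16.7 and 11.1%, beside 30.9 and 26.2%. EIF4EBP1, a repressor of cap-dependent translation, rose from 24.5 ± 4.28 CPM to 41.5 ± 1.51 and 49.0 ± 13.0 CPM, PDCD4, an inhibitor of eIF4A, from 34.8 ± 0.863 to 53.0 ± 2.94 and 43.2 ± 2.28 CPM, and RHEB, the GTPase that activates mTORC1, fell in 1-1 KO (-0.69). These are mRNA levels, and neither mTORC1 activity nor translation was measured here.

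The chaperones dedicated to single ribosomal proteins, 7 genes, showed no common direction. BCCIP, the partner of RPL23, fell in both knockouts (-0.68 and -0.36). HEATR3, which escorts RPL5, fell in 1-1 KO (-0.23) and rose in 1-2 KO (0.24). TSR2, the partner of RPS26, fell in 1-1 KO (-0.18), PDCD2, the partner of RPS2, fell in 1-2 KO (-0.40), and PDCD2L rose in 1-2 KO (0.37). GRWD1, which binds RPL3, and RPS19BP1 were not called, with GRWD1 at 0.09 in both knockouts and RPS19BP1 at 0.03 and 0.26.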

How the data were processed

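Poly(A) mRNA from 3 Huh-7 lines went into stranded libraries, 3 for each. Raw read counts were deposited, which the authors obtained by mapping to hg38 (annotation version 104) in STAR and summing over genes in featureCounts. Whether strand was used and how reads matching several genes or pseudogenes were counted is not given in the sources used here. Symbols and positions came from GENCODE 44 on GRCh38, which held 60463 of 60664 identifiers. Counts were tested in R 4.3.3 with edgeR 4.0.16 (filterByExpr with minimum count 10 and total 15, TMM, quasi-likelihood test, all 9 libraries in 1 fit, Benjamini-Hochberg over 17207 genes), and DESeq2 1.42.0 was an alternative. The biological coefficient of variation was 5.55%. P-values measure the spread between libraries of 1 line. Floors of 3 counts cover counting error only.

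The gene group and lists were chosen with earlier results of these data known. Named genes are all paralogs, the 6 called genes with the largest rise and fall per comparison, the 5 highest and lowest core genes per length in WT, 8 genes of known roles, all genes of lists of up to 10, and the 2 with the smallest adjusted p per knockout in longer lists, while mitochondrial ribosomal proteins are summarised. RPL10, RPL13, RPL17, RPL22, RPL7, RPLP2 and RPS28 were added after their values were seen. Of the genes, 81 fit the rule without a further digit or a double ending. Some genes that met these rules are counted in the totals but not reported by name here. The steps were tested on simulated data.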

Additional observations from a re-analysis of the deposited data

How the results depend on the processing

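The counts of genes called were recomputed under 20 alternatives. Genes lower than WT ranged from 55 to 59 in 1-1 KO and from 37 to 45 in 1-2 KO when each library was left out in turn, genes higher from 4 to 7 and from 3 to 7, and between knockouts 39 to 45 were higher and 16 to 20 lower in 1-2 KO. The number higher in 1-1 KO was 4 without WT replicate 1. The number higher in 1-2 KO was 3 without 1-2 KO replicate 3, without WT replicate 1 or without WT replicate 3, and without 1-2 KO replicate 1 it was 7. Without 1-2 KO replicate 1, 43 genes were lower in 1-2 KO, and without WT replicate 3, 56 were lower in 1-1 KO. At an adjusted p under 0.01, 4 genes were higher in 1-1 KO and 3 in 1-2 KO. With the neighbours' median as an offset, 3 were higher in 1-2 KO than in WT and 9 lower in 1-2 KO than in 1-1 KO. With library size alone, 30 of 84 genes were lower and 7 higher in 1-2 KO compared to WT. Of all tested genes 22.1% were lower and 33.3% higher under this scaling. The median of the 84 genes was -0.05, against 0.07 over all tested genes.

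The replicate numbers did not pair the samples, since deviations of same-numbered libraries correlated between -0.187 and 0.0474. With a replicate block 57 genes were lower in 1-1 KO and 42 in 1-2 KO. Differently numbered libraries of different lines correlated between -0.142 and 0.237. The highest value was that of WT replicate 3 with 1-2 KO replicate 1. In both, the 4 genes over 60% GC lay above the mean of their line. A common cause was not tested.

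With the neighbours' median as offset some signs turned, and only values called with or without the offset are listed. In 1-2 KO compared to WT the sign turned for RPL12 (-0.037), RPL26L1 (-0.14), RPL5 (0.13), RPS10 (0.0395) and RPS14 (-0.0802). In 1-1 KO compared to WT it turned for RPL30 (-0.25), RPL31 (-0.21), RPL8 (-0.0437) and RPS27A (-0.17). In 1-2 KO compared to 1-1 KO it turned for RPL30 (0.0818), RPL31 (0.0401), RPL37 (0.35), RPL7L1 (0.15), RPS15 (0.0345) and RPS29 (0.0165). These neighbours were measured in the same libraries, and the cause was not tested. Of 2036 values of named genes under alternatives, 1925 kept their side of the threshold, and their direction where they were called. Values without a call in either setting could change sign among these. RPL39L in 1-1 KO compared to WT ranged from -0.23 to 0.25 when each library was left out in turn.

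The share of counts in all genes was 5.13% in WT and 4.84% in 1-2 KO with protein-coding counts as denominator, 5.18 and 4.70% with TMM-scaled library sizes, and 5.14 and 4.89% with pseudogene counts added. Leaving out 1 library, which was added after the data were seen, gave 5.02 to 5.09% in WT, 4.16 to 4.24% in 1-1 KO and 4.73 to 4.78% in 1-2 KO. With pseudogene counts added the part of RPL36AL was 97.8% in WT, 98.7% in 1-1 KO and 97.2% in 1-2 KO. With canonical transcript length, also added later, levels in CPM per kilobase were 2251 for RPS12, 3281 for RPS18, 2129 for RPS27, 1112 for RPL41, 7.56 for RPL36A, 308 for RPS29, 49.9 for RPS10 and 125 for RPS15A.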
